A study of Homo sapiens with 4 samples.

Results

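The endoplasmic reticulum folds, glycosylates and ships the proteins that a cell secretes or places in its membranes, and the 45 genes described here encode the chaperones, oxidoreductases, sensors and disposal factors that do this work. They were chosen by symbol, as a list of endoplasmic reticulum chaperones and genes of the unfolded protein response. The rule picked no gene by its measured value, but the list was drawn up with earlier results of these data known. All 45 symbols were found among the 63677 genes of the table, and all 45 passed the filter on low counts. Where a symbol had several rows (ATF6B, HYOU1 and MANF), the row with the highest mean was used, and the other rows held 0 reads in each of the 4 libraries.

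The study sequenced RNA from MDA-MB-231, a widely used human line of triple-negative breast cancer cells, to find the expression signature of depleting the receptor tyrosine kinase AXL. The siCt group is MDA-MB-231 treated with a control siRNA and the siAxl group is the same line treated with an siRNA against AXL, with 2 libraries in each group and no other agent named. The paper's methods describe the AXL reagent as a pool of siRNAs given with a lipid reagent, and the cultured line as a luciferase-carrying derivative. The time from transfection to harvest is not given in the sources used here, and with a single pool in a single line, effects of AXL loss and of the reagent cannot be told apart. The labels number the libraries of a group without naming cultures, so the p-values measure the spread between these libraries, which may be technical.

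When unfolded proteins build up in the endoplasmic reticulum, the sensor proteins IRE1 (gene ERN1), PERK (EIF2AK3) and ATF6 signal to the nucleus and to the ribosome. IRE1 splices the mRNA of XBP1 into the form that encodes an active transcription factor, ATF6 is cut by the site-1 and site-2 proteases and its freed part enters the nucleus, and PERK phosphorylates the initiation factor eIF2alpha, which slows translation and favours ATF4. XBP1 and ATF6 act on promoters of chaperone and degradation genes, many of which carry an ER stress response element, a CCAAT box separated by a fixed spacer from the letters CCACG.

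The libraries held 39574387 to 44585773 reads, and the deposited signal is the normalized count, the reads of a gene divided by the size factor of its library. AXL (ENSG00000167601) had 29189 and 30617 normalized counts in the siCt libraries and 8658 and 7141 in the siAxl libraries, 26.4% of the siCt level by the means (log2 fold change -1.93, SE 0.092, limma adjusted p = 0.000585). VIM, CD44 and EGFR, which mark this line, were high in every library, at 7136 to 99296 normalized counts, while ESR1 and PGR stayed at or below 3.25. EGFR moved with the groups, from 7355 and 7136 in siCt to 12921 and 15003 in siAxl (log2 fold change 0.94, SE 0.077, limma adjusted p = 0.00166), a larger change than that of any of the 45 genes, and its part in the results was not tested. Of the markers of other cell types, PECAM1 was at 0 in all 4 libraries, CD3E at or below 0.959, ALB at or below 10.7 and PTPRC at or below 16.7. Mitochondrial genes took 3.70% and 3.78% of the reads in siCt 1 and siAxl 1 and 2.11% and 2.28% in siCt 2 and siAxl 2, so that this share moved with the replicate number and not with the siRNA.

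The elements that XBP1 and ATF6 are known to use are shown first. The genes were chosen by symbol and not by sequence. The list is nevertheless one of genes of the unfolded protein response, many of which are known to carry the element. Its share among them is therefore not independent of the choice. Promoter windows from RefSeq on GRCh38.p14, running from 250 bases before to 50 bases after each annotated start, were available for 41 of the 45 genes (PDIA3, DERL1, DERL3 and SEC24D had none). The windows were searched on both strands for the element ERSE, which is CCAAT, 9 bases of any kind and CCACG, and for ERSE-II, which is ATTGG, 1 base of any kind and CCACG. No gene among the 41 held both. Each line gives the strand of the gene, 5′ to 3′, with the fixed bases of the element in capitals and 4 flanking bases on each side.
HSPA5: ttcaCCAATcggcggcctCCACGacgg
HSP90B1, distal: ctgaCCAATcggaaggagCCACGcttc
HSP90B1, proximal: ggtgCGTGGtgcggcgcgATTGGtggg
PDIA6: cggaCCAATgagccgcagCCACGgctt
CALR: cacgCGTGGtcgaccatcATTGGtcgg
CANX: ccggCCAATcttcacactCCACGaaga
XBP1: ctggCCAATcgcggagggCCACGaccg
HYOU1, distal: gtgaCGTGGtCCAATccca
HYOU1, proximal: gggaCGTGGtCCAATgagt
HERPUD1: gccgATTGGgCCACGttgg
SDF2L1: gaagCGTGGaCCAATcaaa

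The first 7 lines are ERSE and the last 4 are ERSE-II, and a line that begins its capitals with CGTGG carries the element on the strand opposite to the gene. The HSPA5 site lies at chr9:125241387-125241413 (gene on the minus strand), the HSP90B1 sites at chr12:103930212-103930238 and chr12:103930317-103930343 (plus), the PDIA6 site at chr2:10812849-10812875 (minus) and the CALR site at chr19:12938380-12938406 (plus). The CANX site lies at chr5:179698774-179698800 (plus), the XBP1 site at chr22:28800599-28800625 (minus), the HYOU1 sites at chr11:119057376-119057394 and chr11:119057270-119057288 (minus), the HERPUD1 site at chr16:56932021-56932039 (plus) and the SDF2L1 site at chr22:21642110-21642128 (plus). All of them lie before the annotated start, the nearest 34 bases away (XBP1) and the farthest 207 (CALR). CRELD2 and ERO1LB each held an ERSE as well, so that 8 of the 41 genes (19.5%) carried an exact ERSE. In all, 25 of 27305 genes did (0.0916%), and 21 of 15843 protein-coding genes (0.133%). An exact ERSE-II was carried by 3 of the 41 (7.32%), against 19 in all (0.0696%) and 15 protein-coding genes (0.0947%). The counts of 25 and 19 include the carriers among the 41. No exact element of either kind was found in the windows of the 5 further lists of pathway genes that close the account (0 genes in each). Not all of those genes had a window. Windows were available for 27 of 31 folding genes, 26 of 29 coat and cargo genes and 21 of 26 degradation genes. They were also available for 26 of 32 translocation and glycosylation genes and 16 of 18 genes of the PERK arm. With 1 mismatch allowed, an ERSE was found in 15 of the 41 genes (36.6%), in 517 of all genes (1.89%) and in 367 protein-coding genes (2.32%). A match describes these letters and does not show that a factor was bound there.

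As a group, the 45 genes read somewhat higher in siAxl than in siCt, with small changes in most of them. The fit across all genes called 20 of the 45 higher in siAxl, where 10.8% of the 16064 genes tested were called higher, and 0 lower, where 7.91% of all genes were called lower and 18.7% were called in either direction. A gene counts as called when its limma p, adjusted over the 16064 genes, is under 0.05, and each log2 fold change compares siAxl with siCt as log2(normalized count + 1). The median log2 fold change of the 45 genes was 0.22, from -0.19 for MBTPS2 to 0.81 for CREB3L1, against -0.0022 over all genes tested. Of the 45 changes, 41 were positive, where 7981 of the 16064 over all genes were. At an unadjusted limma p under 0.05, 27 of the 45 were higher and 1 (MBTPS2) was lower. The share of all genes at that unadjusted threshold was not counted, so these counts have no background. By adjusted p, edgeR's quasi-likelihood test also called 0 of the 45 lower. Most of these genes are abundant, and of the 7647 genes with a mean of at least 1000 normalized counts 14.7% were called higher. Of the 45, 40 were at that level and 18 of those were called higher.

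The split of calls over all genes depended on the scaling. The fit called 1735 genes higher and 1271 lower, scaling by library size called 1536 and 1745, and library sizes without the mitochondrial genes called 1509 and 1808. The count of the 45 genes called higher was 20 and 21 under these scalings, and both called MBTPS2 lower. RNA was extracted in bulk, so a change in RNA per cell and a change in the share of cells that carry it cannot be told apart.

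**Figure D1:**
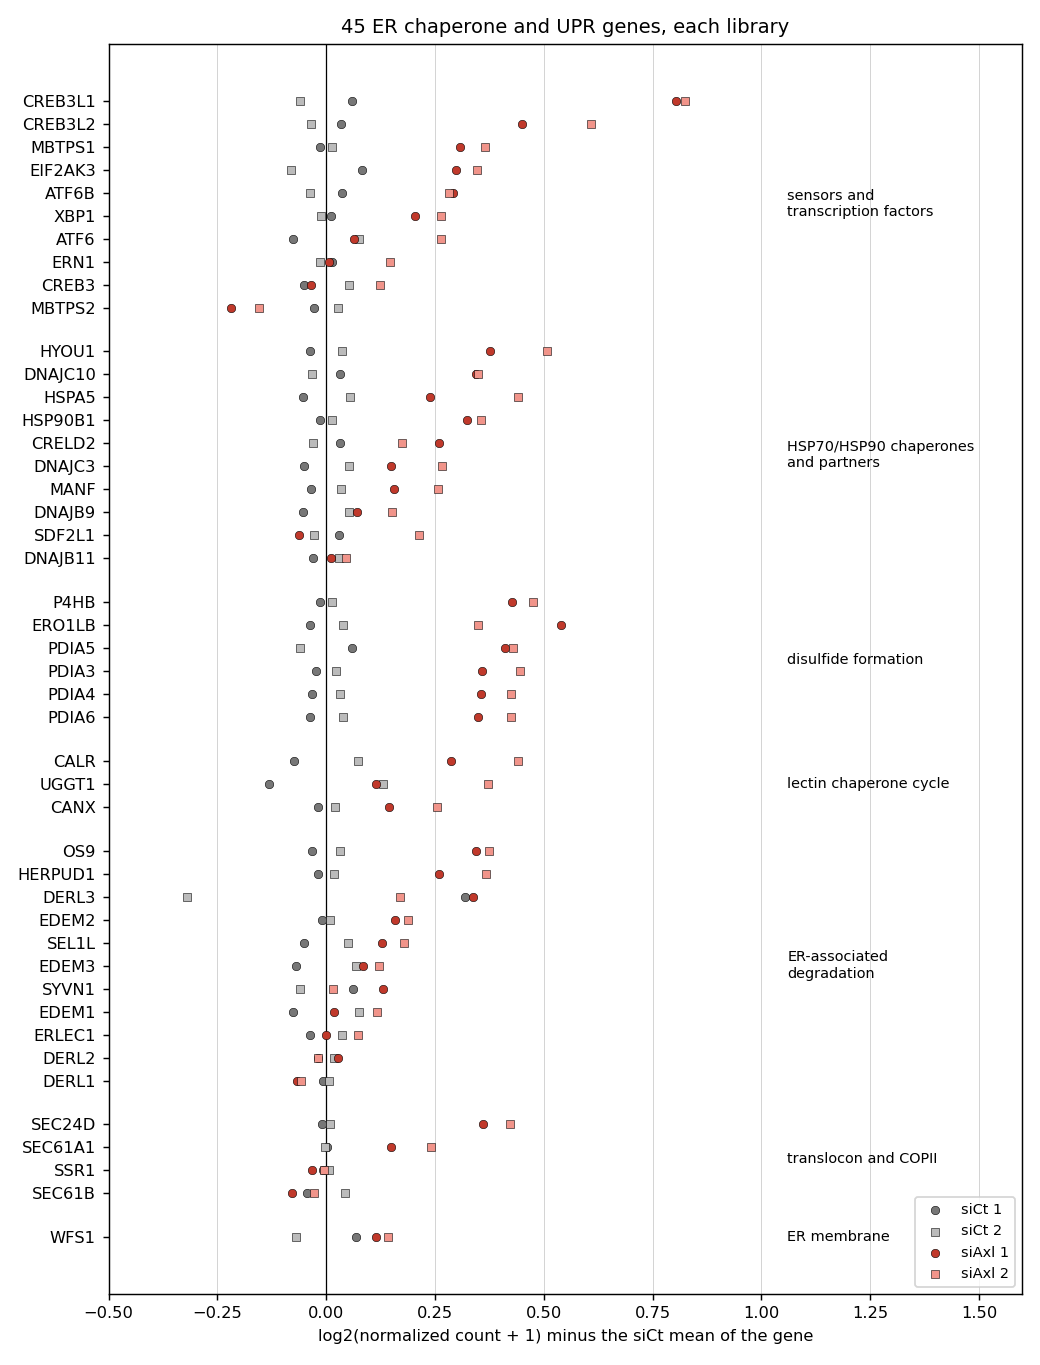
Each of the 45 genes is a line and each library a point, as log2(normalized count + 1) minus the siCt mean of that gene, with circles for replicate 1, squares for replicate 2, grey for siCt and red for siAxl. Both siAxl libraries lay above both siCt libraries for 30 genes, below both for 2 (MBTPS2 and DERL1), and the groups overlapped for 13.

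Both siAxl libraries lay above both siCt libraries for 30 of the 45 genes, where 30.6% of all genes did so, and below both for 2, where 30.5% of all genes did so. The library siAxl 2 read higher than siAxl 1 for 39 of the 45 genes, against 57.2% of all genes tested, and siCt 2 read higher than siCt 1 for 31 of the 45, against 52.9%. Values were thus higher in siAxl 2 than in siAxl 1 for most of the genes. Without siAxl 2 the median log2 fold change of the 45 genes was 0.16 and without siAxl 1 it was 0.26. It was 0.20 without siCt 1 and 0.24 without siCt 2, against -0.0042 to 0.0016 over all genes in these fits. Fewer of the 45 were called higher when siAxl 1 or siAxl 2 was left out, and fewer of all genes were as well. Of the 20 called genes, 11 were called whichever library was left out, and all 20 stayed positive in each of the 16 alternative fits.

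Among the sensors, proteases and transcription factors, 6 of 10 were called higher, where 10.8% of all genes were (median log2 fold change 0.26). ERN1 (ENSG00000178607), which encodes the kinase and ribonuclease IRE1, had 1549.6 and 1520.2 normalized counts in siCt 1 and siCt 2 and 1542 and 1698 in siAxl 1 and siAxl 2. The groups overlapped and the change did not pass (log2 fold change 0.08, SE 0.071, limma adjusted p = 0.503). EIF2AK3 (ENSG00000172071), the gene of PERK, had 1020.3 and 911 in siCt and 1186 and 1226 in siAxl, so that the groups were apart (log2 fold change 0.32, SE 0.080, limma adjusted p = 0.0333). The stress sensor ATF6 (ENSG00000118217) had 4680.3 and 5203 in siCt and 5156 and 5926 in siAxl. Its siAxl 1 library fell between the siCt libraries, and the change did not pass (log2 fold change 0.16, SE 0.085, limma adjusted p = 0.223). Its paralogue ATF6B (ENSG00000213676) had 6276 and 5969 in siCt and 7492 and 7438 in siAxl, and both siAxl libraries were above both siCt libraries (log2 fold change 0.29, SE 0.055, limma adjusted p = 0.0149). ATF6B shares exon bases on the same strand with TNXB, whose reads came to 15.7% of its own.

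XBP1 (ENSG00000100219), the substrate of IRE1, had 2589 and 2545 normalized counts in siCt and 2959 and 3084 in siAxl, apart by a small step (log2 fold change 0.23, SE 0.057, limma adjusted p = 0.0319). The gene counts do not separate spliced from unspliced XBP1 mRNA, so they say nothing of IRE1 activity. The proteases that cut ATF6 differed in sign. MBTPS1 (ENSG00000140943), the site-1 protease, had 6339 and 6463 in siCt and 7917 and 8246 in siAxl, a rise seen in both libraries (log2 fold change 0.34, SE 0.054, limma adjusted p = 0.00859). MBTPS2 (ENSG00000012174), the site-2 protease, had 2765 and 2876 in siCt and 2422 and 2532 in siAxl. Both siAxl values lay below both siCt values, and the test was not passed (log2 fold change -0.19, SE 0.060, limma adjusted p = 0.0700).

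The CREB3 family encodes membrane-bound transcription factors that are released by the same proteases, and it held the largest changes of the 45 genes. CREB3L1 (ENSG00000157613), known for its part in collagen secretion by bone cells, had 2571 and 2364 normalized counts in siCt and 4305 and 4369.7 in siAxl. The siAxl libraries agreed closely and stood far above siCt, a 1.76-fold rise of the means (log2 fold change 0.81, SE 0.063, limma adjusted p = 0.00136). CREB3L2 (ENSG00000182158), which regulates COPII genes in cartilage, had 4658 and 4445 in siCt and 6217 and 6934 in siAxl, 1.44-fold by the means (log2 fold change 0.53, SE 0.069, limma adjusted p = 0.00442). The siAxl libraries differed from each other more than the siCt libraries did, but the groups were clearly apart. CREB3 (ENSG00000107175) had 2492 and 2677 in siCt and 2521 and 2814 in siAxl, and its groups overlapped (log2 fold change 0.04, SE 0.075, limma adjusted p = 0.725). CREB3 overlaps TLN1 and GBA2 on the opposite strand, so its reads could be shared with theirs.

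Of these sensors and factors, MBTPS1, CREB3L1 and CREB3L2 were called whichever library was left out. With 1 library left out, EIF2AK3 lost its call, with log2 fold changes of 0.35 without siAxl 1, 0.30 without siAxl 2 and 0.24 without siCt 2 (limma adjusted p 0.0921 to 0.130). ATF6B lost its call, at 0.28 without siAxl 1 and 0.29 without siAxl 2 (limma adjusted p 0.0593 to 0.0726), as did XBP1, at 0.26 without siAxl 1, 0.21 without siAxl 2 and 0.22 without siCt 2 (limma adjusted p 0.0830 to 0.172). The number called in this group therefore fell without siAxl 1, without siAxl 2 and without siCt 2. Over all genes, too, fewer were called higher in each of these fits.

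**Figure D2:**
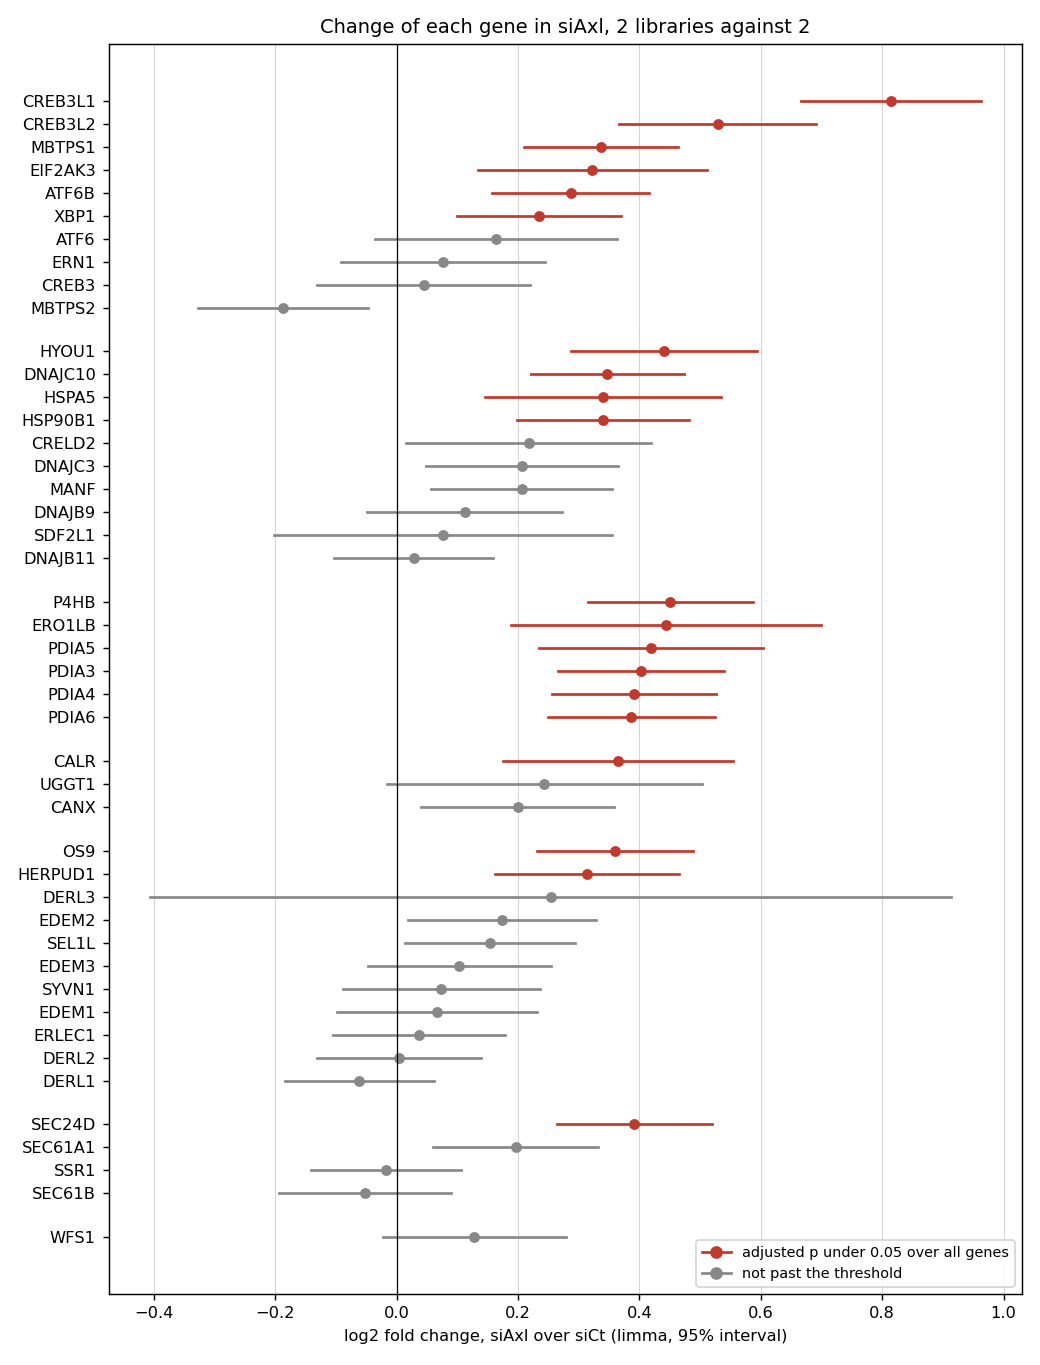
Points are the log2 fold changes of the 45 genes, siAxl over siCt, and bars are their 95% intervals from limma, with genes past the adjusted threshold in red and the others in grey. CREB3L1 lay farthest to the right at 0.81, the 6 genes of disulfide formation were all red between 0.39 and 0.45, and DERL3 had the widest interval.

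Of the HSP70 and HSP90 chaperones of the lumen and their partners, 4 of 10 were called higher, where 10.8% of all genes were. Their median log2 fold change was 0.21. HSPA5 (ENSG00000044574), which encodes BiP, the central HSP70 of the lumen, had 31302 and 33739 normalized counts in siCt and 38339 and 44141 in siAxl. The groups were apart, although the siAxl libraries differed from each other by more than the gap between the groups (log2 fold change 0.34, SE 0.082, limma adjusted p = 0.0311). HSP90B1 (ENSG00000166598), the HSP90 of the lumen, had 54352 and 55369 in siCt and 68605 and 70252 in siAxl, with close replicates (log2 fold change 0.34, SE 0.060, limma adjusted p = 0.0117). HYOU1 (ENSG00000149428), a large HSP70 that helps BiP exchange nucleotide, had 11469 and 12068 in siCt and 15262 and 16714 in siAxl, the largest change of the group (log2 fold change 0.44, SE 0.065, limma adjusted p = 0.00667). DNAJC10 (ENSG00000077232), a J protein that also reduces disulfides, had 7713 and 7385 in siCt and 9585 and 9612 in siAxl, and the siAxl libraries nearly coincided (log2 fold change 0.35, SE 0.054, limma adjusted p = 0.00765).

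The 6 other partners of BiP in this group were not called. For DNAJC3, MANF and CRELD2 both siAxl libraries lay above both siCt libraries, with log2 fold changes of 0.21, 0.21 and 0.22 and limma adjusted p of 0.0737, 0.0631 and 0.123. DNAJC3 is a co-chaperone that also binds PERK, MANF is a secreted stress-induced factor, and CRELD2 is a disulfide isomerase. The J proteins DNAJB9 and DNAJB11 stood at 0.11 and 0.03, and SDF2L1, which binds J proteins, stood at 0.08, with limma adjusted p of 0.2995, 0.767 and 0.701. DNAJB9, CRELD2 and DNAJB11 overlap other genes on the opposite strand. HYOU1 and DNAJC10 were called whichever library was left out, whereas HSPA5 lost its call, at 0.24 without siAxl 2 (limma adjusted p = 0.140) and HSP90B1 lost it, at 0.32 without siAxl 2 (limma adjusted p = 0.0633). Without siAxl 2 the group thus held fewer called genes, and fewer of all genes were called higher as well.

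All 6 genes of disulfide formation were called higher, where 10.8% of all genes were. Their log2 fold changes lay in a narrow range, from 0.39 to 0.45 with a median of 0.41. P4HB (ENSG00000185624), the founding protein disulfide isomerase and a subunit of collagen prolyl hydroxylase, had 32545 and 33135 normalized counts in siCt and 44154 and 45648 in siAxl. Replicates were close and the groups were far apart (log2 fold change 0.45, SE 0.057, limma adjusted p = 0.00419). PDIA3 (ENSG00000167004), which works on glycoproteins held by calnexin and calreticulin, had 13678 and 14126 in siCt and 17831 and 18932 in siAxl (log2 fold change 0.40, SE 0.058, limma adjusted p = 0.00611). PDIA4 (ENSG00000155660), another isomerase of the lumen, had 12980.5 and 13568 in siCt and 16989.7 and 17815 in siAxl (log2 fold change 0.39, SE 0.057, limma adjusted p = 0.00655), and PDIA6 (ENSG00000143870), an isomerase that binds BiP, had 9903 and 10434 in siCt and 12954 and 13638 in siAxl (log2 fold change 0.39, SE 0.058, limma adjusted p = 0.00697). In PDIA3, PDIA4 and PDIA6 both siAxl libraries stood above both siCt libraries, with siAxl 2 a little above siAxl 1.

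PDIA5 (ENSG00000065485), a less abundant isomerase, had 727 and 669 normalized counts in siCt and 927 and 938 in siAxl, again with no overlap (log2 fold change 0.42, SE 0.078, limma adjusted p = 0.0140). PDIA5 shares exon bases on the same strand with SEC22A, whose reads came to 59.8% of its own. ERO1LB (ENSG00000086619), an oxidase that recharges the isomerases, had 285 and 300.1 in siCt and 425 and 372 in siAxl. Here siAxl 1 was the higher of the siAxl libraries, unlike in the other genes of the group (log2 fold change 0.44, SE 0.11, limma adjusted p = 0.0320). P4HB, PDIA3, PDIA4 and PDIA6 were called whichever library was left out. PDIA5 lost its call, at 0.43 without siAxl 1 and 0.41 without siAxl 2, and ERO1LB lost its call, at 0.35 without siAxl 1. Over all genes, too, fewer were called higher in each of these fits.

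In the cycle of the lectin chaperones, which hold glycoproteins until they are folded, 1 of 3 genes was called higher. Of all genes tested, 10.8% were, and the median log2 fold change of the 3 genes was 0.24. CALR (ENSG00000179218), soluble calreticulin, had 42654 and 47224 normalized counts in siCt and 54795 and 60925 in siAxl. The libraries of each group differed visibly, but the groups stayed apart (log2 fold change 0.36, SE 0.080, limma adjusted p = 0.0238). The membrane-bound counterpart CANX had 65697 and 67478 in siCt and 73589.9 and 79416 in siAxl, also without overlap, and did not pass (log2 fold change 0.20, SE 0.067, limma adjusted p = 0.0826). UGGT1, which reglucosylates misfolded glycoproteins so that they bind the lectins again, had 4521 and 5421 in siCt and 5360.2 and 6403 in siAxl. Its siCt 2 library lay above its siAxl 1 library (log2 fold change 0.24, SE 0.11, limma adjusted p = 0.171). CALR lost its call, at 0.29 without siAxl 2 and 0.29 without siCt 1 (limma adjusted p 0.0618 to 0.103), which left 0 of 3 called in those fits, and the median of the 3 genes ranged from 0.14 to 0.37 as each library was left out.

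Among 11 genes of ER-associated degradation, the route that returns misfolded proteins to the cytosol, 2 were called higher, a share of 18.2% against 10.8% of all genes (median log2 fold change 0.10). OS9 (ENSG00000135506), a lectin that reads trimmed glycans on the substrate, had 4908 and 5133 normalized counts in siCt and 6371 and 6508 in siAxl, with close replicates (log2 fold change 0.36, SE 0.055, limma adjusted p = 0.00727). HERPUD1 (ENSG00000051108), a membrane component of the ligase complex, had 1880.4 and 1929 in siCt and 2279 and 2458 in siAxl (log2 fold change 0.31, SE 0.065, limma adjusted p = 0.0192). HERPUD1 lost its call, at 0.26 without siAxl 2 (limma adjusted p = 0.107), which left 1 called gene in the group, while OS9 was called whichever library was left out.

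The ligase itself and its adaptor were not called: SYVN1, the ubiquitin ligase HRD1, had a log2 fold change of 0.07 (limma adjusted p = 0.507) and SEL1L, its partner, 0.15 (limma adjusted p = 0.117). The mannose-trimming factors EDEM1, EDEM2 and EDEM3 had 0.07, 0.17 and 0.10, and the lectin ERLEC1, a relative of OS9, 0.04. None of these 4 passed, with limma adjusted p of 0.557, 0.112, 0.305 and 0.719. Of the derlins, which form part of the retrotranslocation channel, DERL1 had -0.06 with both siAxl libraries below both siCt libraries (limma adjusted p = 0.458), and DERL2 had 0.0034 with full overlap. DERL3 was barely expressed, at 39.3 and 24.9 normalized counts in siCt and 39.8 and 35.4 in siAxl, and its interval of -0.41 to 0.91 allows a change in either direction. DERL3 shares 2923 exon bases on the opposite strand with SMARCB1, whose reads were far more numerous, and reads from the shared bases cannot be assigned without the strand setting. SYVN1, DERL1 and DERL2 also overlap expressed genes.

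Of the translocon and coat genes, 1 of 4 was called higher, where 10.8% of all genes were (median log2 fold change 0.089). SEC24D (ENSG00000150961), a cargo-binding subunit of the COPII coat that carries folded proteins to the Golgi, had 5133 and 5199.8 normalized counts in siCt and 6637 and 6922 in siAxl. Both siAxl libraries were well above siCt (log2 fold change 0.39, SE 0.054, limma adjusted p = 0.00533), and the call was kept whichever library was left out. SEC61A1, the channel-forming subunit of the translocon, had 16316 and 16254 in siCt and 18066 and 19259 in siAxl, apart but just outside the threshold (log2 fold change 0.20, SE 0.057, limma adjusted p = 0.0554), and it overlaps RUVBL1 on the opposite strand. SEC61B and SSR1, a small subunit and an accessory subunit of the translocon, had -0.05 and -0.02 (limma adjusted p = 0.589 and 0.844), and their groups overlapped. WFS1, a membrane protein tied to Wolfram syndrome, had 4927 and 4477 in siCt and 5082 and 5182 in siAxl (log2 fold change 0.13, SE 0.064, limma adjusted p = 0.209), which did not pass although the groups were apart.

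The genes with an ERSE or ERSE-II in their promoter window can be set beside those without. Of the 11 carriers, 8 were called higher (XBP1, HSPA5, HSP90B1, HYOU1, PDIA6, ERO1LB, CALR and HERPUD1), with a median log2 fold change of 0.34, and CANX, CRELD2 and SDF2L1 were not. Of the 30 genes with a window and no element, 10 were called higher, with a median of 0.17. Of all genes tested, 10.8% were called higher. Without siAxl 2, 3 of the 11 carriers and 7 of the 30 others were called, without siAxl 1, 6 and 7 were called, and with every gene of at least 1 read tested, 3 and 8 were called. Over all genes, too, fewer were called higher in each of these fits than in the main fit, 757 of 27108 with the filter of 1 read. CREB3L1, CREB3L2 and P4HB, which had the largest changes of the 45, were among the genes with no exact element in the window. No test was made between carriers and others.

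Levels differed far more between genes than between groups. Per kilobase of exon in the siCt libraries, CALR stood at 16558 normalized counts, HSP90B1 at 11685, CANX at 10679.6, HSPA5 at 8322, P4HB at 6193 and PDIA4 at 4051. These chaperones are the bulk folding machinery of the lumen. At the lower end stood the sensors EIF2AK3 at 178 and ERN1 at 141, then CRELD2 at 95.6, ERO1LB at 54.6 and DERL3 at 8.46. Calls were found at both ends of this scale: CALR, HSP90B1, HSPA5, P4HB and PDIA4 were called among the 6 highest, and EIF2AK3, PDIA5 and ERO1LB among the 6 lowest.

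**Figure D3:**
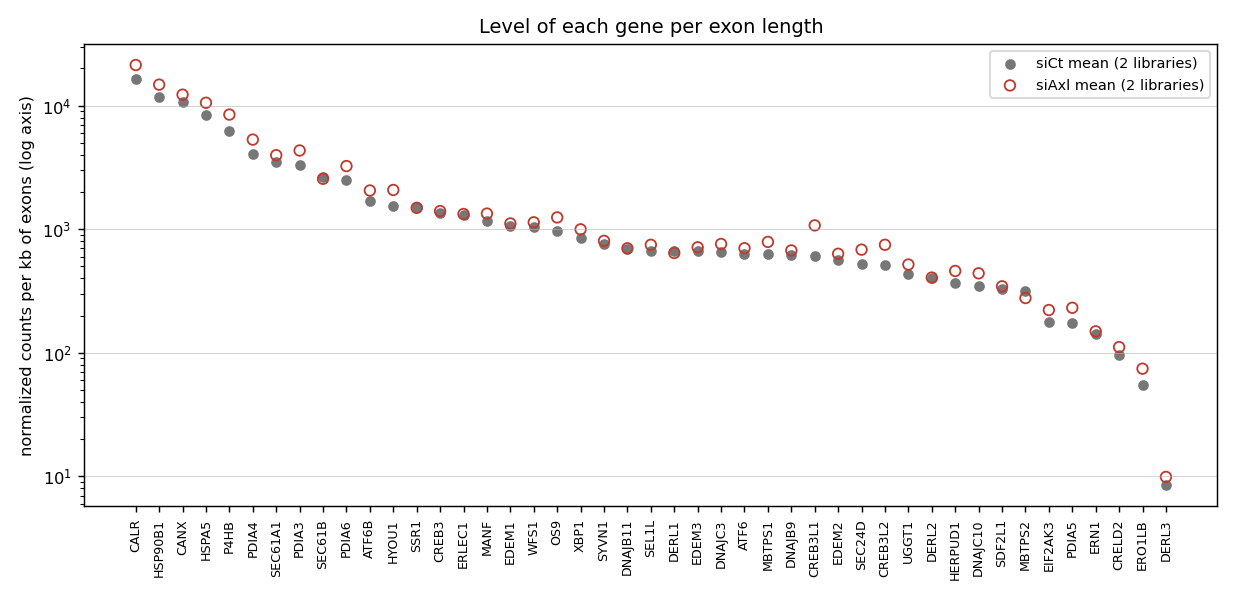
Filled grey points are the siCt means and open red points the siAxl means of 2 libraries each, as normalized counts per kilobase of exon on a log axis, with the 45 genes ordered by the siCt level. The levels ran from 16558 for CALR to 8.46 for DERL3 in siCt, and CREB3L1 showed the widest gap between the groups.

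A further 136 genes of the pathway in 5 lists, none of them among the 45, were all tested, and 39 were called higher (28.7%, where 10.8% of all genes were) and 5 lower (3.68%, where 7.91% of all genes were), with a median log2 fold change of 0.10. With every gene of at least 1 read tested, the lists in the order given here held 6, 5, 3, 1 and 1 genes called higher and 0 called lower. Of all 27108 genes tested that way, 757 were called higher and 340 lower. Of 31 further folding enzymes and co-chaperones, 12 were called higher (38.7%) and 0 lower, with a median log2 fold change of 0.24. SERPINH1, the collagen chaperone HSP47, had 7108 and 7362 normalized counts in siCt and 10658 and 11363 in siAxl (log2 fold change 0.61, SE 0.058, limma adjusted p = 0.00218). FKBP9, a prolyl isomerase, had 2249 and 1977 in siCt and 3515 and 3615 in siAxl (log2 fold change 0.76, SE 0.074, limma adjusted p = 0.00223), and QSOX1, a sulfhydryl oxidase, had 25265 and 26394 in siCt and 36017 and 37287 in siAxl (log2 fold change 0.50, SE 0.058, limma adjusted p = 0.00329). These rises were seen in every siAxl library, and the lowest adjusted p among genes with a negative change was that of TMX3, a membrane isomerase, at -0.10 (limma adjusted p = 0.329). Fewer genes of the list were called higher without siAxl 1 and without siAxl 2, and fewer of all genes were as well.

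Of 29 genes of the COPII coat, cargo receptors and retrieval, 12 were called higher (41.4%) and 1 lower. Of all genes, 10.8% and 7.91% were, and the median log2 fold change of the list was 0.12. SURF4, a cargo receptor for soluble proteins, had 9563 and 8603 normalized counts in siCt and 16246 and 16828 in siAxl (log2 fold change 0.87, SE 0.067, limma adjusted p = 0.00136). ERGIC1, of the intermediate compartment, and TMED9, a p24 cargo receptor, stood at 0.47 and 0.34 (limma adjusted p = 0.00353 and 0.00716). The coat subunit SEC23B was the gene called lower, with 6807 and 6889 in siCt and 5503 and 5775 in siAxl (log2 fold change -0.28, SE 0.055, limma adjusted p = 0.0159), and it lost its call, at -0.25 without siAxl 1. The list held fewer genes called higher without siAxl 1, without siAxl 2 and without siCt 1. Over all genes, fewer were called higher without either siAxl library, but more without siCt 1.

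Of 26 genes of further degradation machinery, 7 were called higher (26.9%) and 0 lower (median log2 fold change 0.12). The shares over all genes were 10.8% and 7.91%. FAM8A1, which assembles with the HRD1 ligase, had 1018 and 916 normalized counts in siCt and 2286 and 2329 in siAxl, a 2.39-fold difference (log2 fold change 1.26, SE 0.074, limma adjusted p = 0.000908). NPLOC4, an adaptor of the extracting ATPase p97, stood at 0.57 (limma adjusted p = 0.00335), and MAN1B1, a mannosidase, at 0.31 (limma adjusted p = 0.0101), which lost its call, at 0.29 without siAxl 2. DDRGK1, of the UFM1 conjugation route, had the lowest adjusted p among the negative changes, at -0.14 (limma adjusted p = 0.142). Without siAxl 1 and without siAxl 2 the list held fewer genes called higher, and so did the set of all genes.

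Of 32 genes of translocation, signal cleavage and N-glycosylation, 7 were called higher (21.9%) and 0 lower, with a median log2 fold change of 0.052. The shares over all genes were 10.8% and 7.91%. STT3B and STT3A, the catalytic subunits of the oligosaccharyltransferases, stood at 0.36 and 0.25 (limma adjusted p = 0.00887 and 0.0252), and TUSC3, a subunit that works with STT3B, at 0.38 (limma adjusted p = 0.0113). STT3A lost its call, at 0.28 without siAxl 1, 0.22 without siAxl 2 and 0.22 without siCt 2, and TUSC3 lost its call, at 0.34 without siAxl 2. SRP19, of the signal recognition particle, stood at -0.21 and was not called (limma adjusted p = 0.0821). The list held fewer called genes whichever library was left out. Over all genes, fewer were called higher without siAxl 1, siAxl 2 or siCt 2, but more without siCt 1.

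In the arm that runs from PERK through ATF4 and CHOP, the called genes were mostly lower, and that balance depended on the filter. Of its 18 genes, 1 was called higher and 4 lower, with a median log2 fold change of -0.044. The shares were 5.56% and 22.2%, against 10.8% and 7.91% of all genes. With every gene of at least 1 read tested, 1 was called higher and 0 lower. That filter called 757 of all 27108 genes higher and 340 lower. PPP1R15B, the constitutive eIF2alpha phosphatase subunit, had 5380.3 and 5927 normalized counts in siCt and 4280.2 and 4592 in siAxl (log2 fold change -0.35, SE 0.069, limma adjusted p = 0.0169). SLC3A2, an amino acid transporter chain, and EIF2S1, which encodes eIF2alpha itself, stood at -0.31 and -0.23 (limma adjusted p = 0.0221 and 0.0240), and CEBPB, a transcription factor, at -0.32 (limma adjusted p = 0.0335). The gene called higher was the lipoprotein receptor VLDLR, at 0.55 (limma adjusted p = 0.00329).

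The transcription factors that name the arm were close to no difference. ATF4 had 7117 and 6624 normalized counts in siCt and 6782 and 6352 in siAxl, and DDIT3, the gene of CHOP, had 634 and 623 in siCt and 599 and 647 in siAxl. The groups overlapped for both, with log2 fold changes of -0.06 and -0.01 (limma adjusted p = 0.524 and 0.926) and 95% intervals of -0.21 to 0.08 and -0.21 to 0.18. ATF4 is controlled largely at translation, which these data do not measure. TRIB3 and ASNS, targets of ATF4 and CHOP, stood at 0.16 and -0.02 (limma adjusted p = 0.187 and 0.896). Some calls in this list were lost with 1 library left out: PPP1R15B lost its call, at -0.30 without siAxl 1, SLC3A2 lost its call, at -0.24 without siAxl 1, and EIF2S1 lost its call, at -0.23 without siAxl 1, -0.23 without siAxl 2 and -0.23 without siCt 2, values close to its -0.23 with all libraries. CEBPB also lost its call without siAxl 1, without siAxl 2 and without siCt 2. In these fits the list held fewer genes called lower, and fewer of all genes were called lower too. ATF4, DDIT3, TRIB3, ASNS and CEBPB were singled out after their values were seen.

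**Figure D4:**
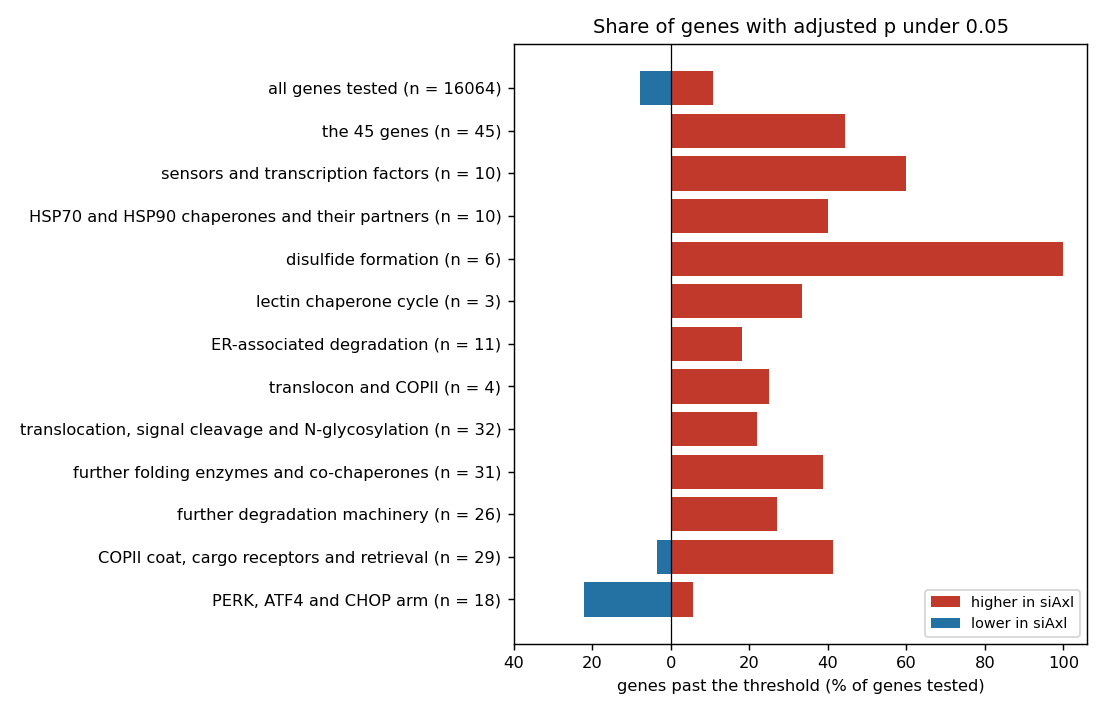
Bars give the percentage of genes past the adjusted threshold, higher in siAxl to the right in red and lower to the left in blue, for all genes tested, the 45 genes, their groups by role (without WFS1, which stands alone) and the 5 further lists, with the number of genes beside each name. All 6 genes of disulfide formation among the 45 reached the threshold. The PERK, ATF4 and CHOP list was the one with more genes called lower (22.2%) than higher (5.56%).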

How the data were processed

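RNA was sequenced in 4 libraries of MDA-MB-231 cells, 2 siCt and 2 siAxl, grouped by the treatment in the labels. The submitters' processing notes name CASAVA 1.8, TopHat2 2.0.10, HTSeq 0.5.3, DESeq2 1.4.5 and the build GRCh37, and the strand setting of the counting is not given in the sources used here. The authors deposited 1 table of 63677 genes whose signal columns hold normalized counts, that is, reads divided by a size factor from DESeq2. The deposited log2 fold changes, standard errors, Wald statistics and p-values of the authors' own comparison were not used, and no per-sample column was left unused (0). In each library 100% of the values were whole multiples of 1 read within a tolerance of 0.01, so reads were recovered. Libraries of a group differed by more than sampling noise (chi-square per gene 20.1 for siCt and 18.2 for siAxl).

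The main test was limma 3.58.1 (lmFit and eBayes with a trend) in R 4.3.3 on log2(normalized count + 1), without covariates, for the 16064 genes that passed filterByExpr on the recovered reads. P-values were adjusted by Benjamini-Hochberg over those genes, with a threshold of 0.05. The code was tested on simulated data. For a single gene, an exact permutation test of 2 against 2 libraries cannot go below p = 0.333 (two-sided). Alternatives were edgeR 4.0.16 (3122 genes called with TMM) and DESeq2 1.42.0 on the recovered reads, other scalings, pseudocounts of 0.5 and 8, other filters, a replicate block and leaving out each library. Removal of a GC and length trend, library sizes without mitochondrial genes, the background of genes with at least 1000 counts and the genes outside the lists whose promoter holds an element were chosen after seeing the data.

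The 45 genes and the lists were chosen with earlier results of these data known. The rule for named genes took all 45, with values per library for called genes without overlap, the sensors and HSPA5, and from each further list the 3 genes of lowest adjusted p on the side of its median and 1 on the other side. Exon lengths and overlaps came from GENCODE release 29 by identifier, and a gene was listed as overlapping where a partner on shared exon bases had over 10% of its reads, which held for 11 of the 45 genes. Promoter sequences came from RefSeq (GRCh38.p14), matched by symbol or synonym. Protein sequences were not used here.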

Additional observations from a re-analysis of the deposited data

How the results depend on the processing

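Of the 20 genes called higher, 12 were called in all 12 alternatives that kept every library, and all 20 kept their sign in every alternative run. Testing every gene with at least 1 read called 1097 genes (757 higher and 340 lower) in place of 3006, with 27108 genes tested. It called 13 of the 45 higher in place of 20. It lost EIF2AK3, ATF6B, XBP1, HSPA5, ERO1LB, CALR and HERPUD1, while library sizes without mitochondrial genes lost EIF2AK3, DESeq2 lost ERO1LB and the fit without a GC and length trend lost DNAJC10. Both library-size scalings, with and without mitochondrial genes, called 1 of the 45 lower (MBTPS2). Leaving out each library gave 1301 to 3900 genes called, 12 to 20 of the 45 called higher, and a median of their log2 fold changes of 0.16 to 0.26. It gave a log2 fold change of AXL of -2.07 to -1.79. Values for a lone library in a group assume that it varies like the others.

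A fit with the replicate number as a block called 7310 of 16064 genes, 3737 higher and 3573 lower. Of the 45, it called 31 higher and 1 lower. The labels give only the number, and libraries with the same number deviated together (Pearson's r = 0.27 across 16064 genes, which are not independent, and 0.55 over the 13086 with a mean of at least 50), so with 2 pairs the pairing is a hint from the data, not the design.

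Some uncalled genes changed sign, DERL3 (0.25, with a wide interval) among them and the rest near 0. Removal of the GC and length trend gave -0.00032 for ERN1, -0.0032 for SYVN1 and 0.014 for SEC61B. Library-size scaling gave -0.00086 for DNAJB11 and -0.026 for DERL2, and -0.024 for DERL2 without mitochondrial genes. As each library was left out, CREB3 ranged from -0.035 to 0.12, DNAJB11 from -0.00078 to 0.057, SDF2L1 from -0.063 to 0.21, EDEM1 from -0.0093 to 0.14, DERL2 from -0.020 to 0.026, DERL3 from -0.065 to 0.57 and ERLEC1 from -0.00096 to 0.074. The cause of these changes was not tested, and with 2 libraries per group the spread of any single gene is known poorly.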

Other observations

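Genes outside the lists whose promoter window holds an exact element were looked up after the values were seen. Of 17 such genes with an ERSE, 8 were tested, and SERP1 and TRIM5 were called higher and SYNPO lower. Of all genes tested, 10.8% were called higher and 7.91% lower. SERP1, which stabilises membrane proteins at the translocon, had 2758 and 2311 normalized counts in siCt and 3929 and 3906 in siAxl (log2 fold change 0.63, SE 0.086, limma adjusted p = 0.00519). TRIM5, an antiviral ubiquitin ligase, stood at 0.42 (limma adjusted p = 0.0140) and lost its call, at 0.38 without siAxl 1. SYNPO, an actin-binding protein, had 1043 and 1285 in siCt and 681 and 667 in siAxl (log2 fold change -0.78, SE 0.11, limma adjusted p = 0.00512). The other 5 tested carriers were not called, and the median log2 fold change of the 8 was 0.015.

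Of 16 such genes with an ERSE-II, 11 were tested, with a median log2 fold change of -0.070. Of these, 3 were called higher and 0 lower, where 10.8% and 7.91% of all genes were. NUCB1, a calcium-binding Golgi protein, had 6077 and 6287 normalized counts in siCt and 7761 and 7876 in siAxl (log2 fold change 0.34, SE 0.053, limma adjusted p = 0.00795). GYS1, muscle glycogen synthase, stood at 0.29 and lost its call, at 0.22 without siAxl 1 and 0.23 without siCt 2. PLS3, an actin bundler, stood at 0.21 and was not called in any of the fits that left out 1 library. ALG12, which overlaps CRELD2 on the opposite strand and also carries an ERSE, stood at 0.021 (limma adjusted p = 0.865).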
